A study of Mus musculus with 40 samples.

Results

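The 33 genes described here are markers of endothelial cells, which line blood vessels, and of the blood-brain barrier that these cells form in the brain. They were chosen by symbol, as the rows of the count table whose Ensembl identifier, without its version, maps to the listed mouse symbols. All 33 were found among the 56980 genes of the table, and all 33 passed the filter on low counts among 17880 genes tested. The libraries hold polyadenylated RNA of the brain of female wild type C57BL/6J mice, and the series title names the medial prefrontal cortex, a frontal cortical area tied to reward and decisions. The mice were adolescent (start on postnatal day 25) or adult (start on postnatal day 55). They drank water or received oral antibiotics, abbreviated Abx in the labels, and were injected subcutaneously with saline or with morphine, an opioid, at 15 mg/kg for 5 days. The 8 groups of 5 libraries are therefore water-saline, Abx-saline, water-morphine and Abx-morphine mice of each age, and no group carries a mutation or transgene. The labels do not tie each library to a mouse of its own, so the p-values reflect the spread among libraries, part or all of which may be technical.

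Endothelial cells of brain capillaries are sealed to each other by tight junctions, built from claudins and occludin and anchored by scaffold proteins. Because little can pass between the cells, nutrients enter through dedicated transporters, and drugs and other foreign compounds are pumped back to the blood by efflux carriers. Receptors for vascular endothelial growth factor and angiopoietins maintain the vessels, and Sox transcription factors hold the endothelial state.

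The count table gave 8.64 M to 12.1 M counts per library (M for mega). Levels are in CPM, counts scaled to a common library size of 1 M after a correction for library composition. The 3 counts taken as a detection floor were 0.25 to 0.346 CPM, which covers counting error only, and every member was above that floor in each library. Summed over the 33 members the level was 1103 to 1571 CPM, with a median of 1277. The labels give tissue with all its cell types, and summed neuron markers were at 5269.7 to 7547 CPM. Markers of the choroid plexus, an epithelium with barrier genes of its own, summed to 3.06 to 8.57 CPM, and its defining gene Ttr had a median of 0.213 CPM and no count in 7 libraries. Adolescent water-saline replicate 5 stood apart. It had the highest summed level of the endothelial, mural, microglia and astrocyte lists and the lowest of the neuron list, and it was the highest library of its group for 20 of the 33 members. Without it 8 members were called for morphine, 7 for age and 5 for antibiotics over all groups, and 8, 7 and 4 of these were called with it. Without adolescent Abx-morphine replicate 5, which lay apart from its group for Bsg, the counts were 7, 7 and 5.

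**Figure D1:**
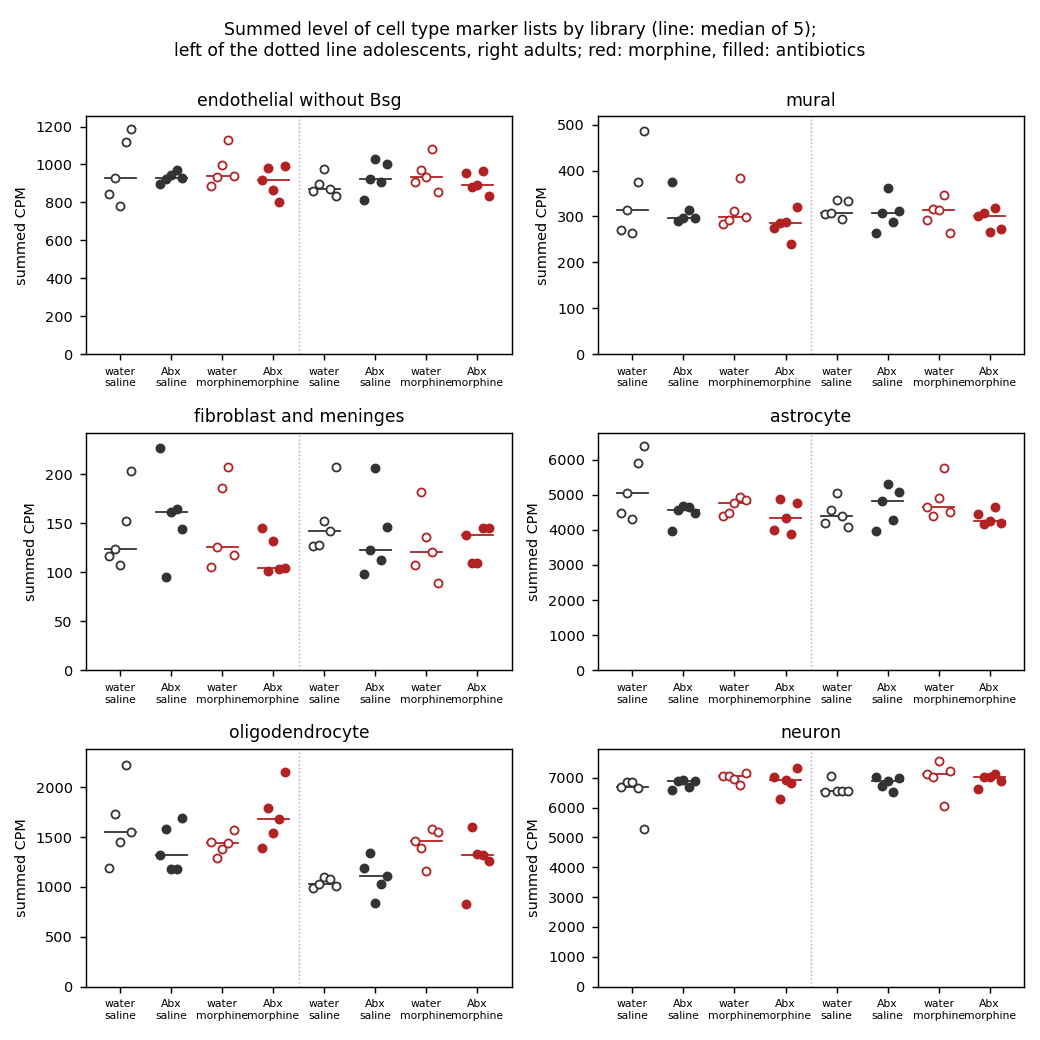
Summed CPM of 6 cell type marker lists in each of the 40 libraries, by group, with the median of 5 libraries as a line. Endothelial markers without Bsg lie between 779 and 1185 CPM with overlapping groups, and the median of oligodendrocyte markers is lowest in the adult saline groups.

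Per kilobase of merged exons, the levels of the members spanned a wide range. Bsg, which encodes basigin, the chaperone of monocarboxylate transporters, was highest at 189 CPM per kilobase, and neurons and glia also express it. The glucose transporter gene Slc2a1 followed at 26.4, the membrane protein gene Itm2a at 24.7, the tight junction gene Cldn5 at 23.7 and the amino acid transporter gene Slc7a5 at 22.6 CPM per kilobase. The ranges of these last 4 genes over libraries overlapped. The lowest were Apold1 at 1.58, the adhesion gene Icam2 at 1.03 and the sialomucin gene Emcn at 0.712 CPM per kilobase. Mean counts per library ran from 18.95 for Icam2 to 3320 for Bsg, and 8 members had a mean under 100 counts. The coefficient of variation within groups was 4.98% for Bsg, 39.6% for Icam2 and 16.2% for the median member, so small changes could be resolved for Bsg and not for Icam2 or Emcn.

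**Figure D2:**
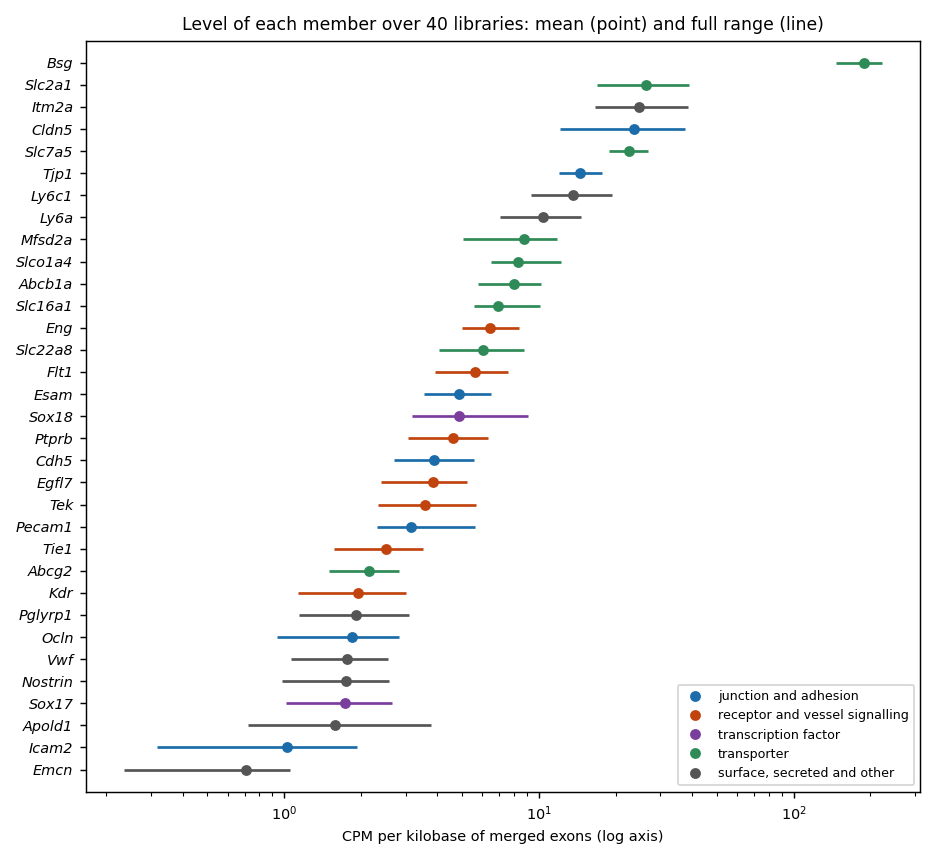
Level of each of the 33 members in CPM per kilobase of merged exons, on a log axis, as the mean and the full range over 40 libraries, coloured by role. Bsg at 189 lies far above the next gene, Slc2a1, at 26.4.

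Which of these genes differ after morphine, after antibiotics or between ages was asked in contrasts of 1 model fitted to all 40 libraries. These comparisons share libraries and are not independent of each other. In bulk tissue, fewer endothelial cells and less RNA per endothelial cell cannot be told apart. A gene is called here at an adjusted p under 0.05, from edgeR's quasi-likelihood F test with Benjamini-Hochberg adjustment over all genes tested, and log2 fold changes are given with their SE.

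Morphine was followed by a mixed pattern rather than a shift of the whole list. Over all groups, 8 of the 33 members were called, 4 higher and 4 lower, against 4.35% of all genes tested, 2.54% higher and 1.81% lower. Apold1, Cldn5, Slc16a1 and Bsg fell. Slc2a1, Mfsd2a, Sox17 and Sox18 rose. The median log2 fold change of the 33 was -0.05, beside 0.00 over all genes tested, and 19 of the 33 were negative. Summed endothelial markers without Bsg overlapped between the injections, with group medians of 871 to 931 CPM in saline mice and 891 to 939 CPM in morphine mice.

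**Figure D3:**
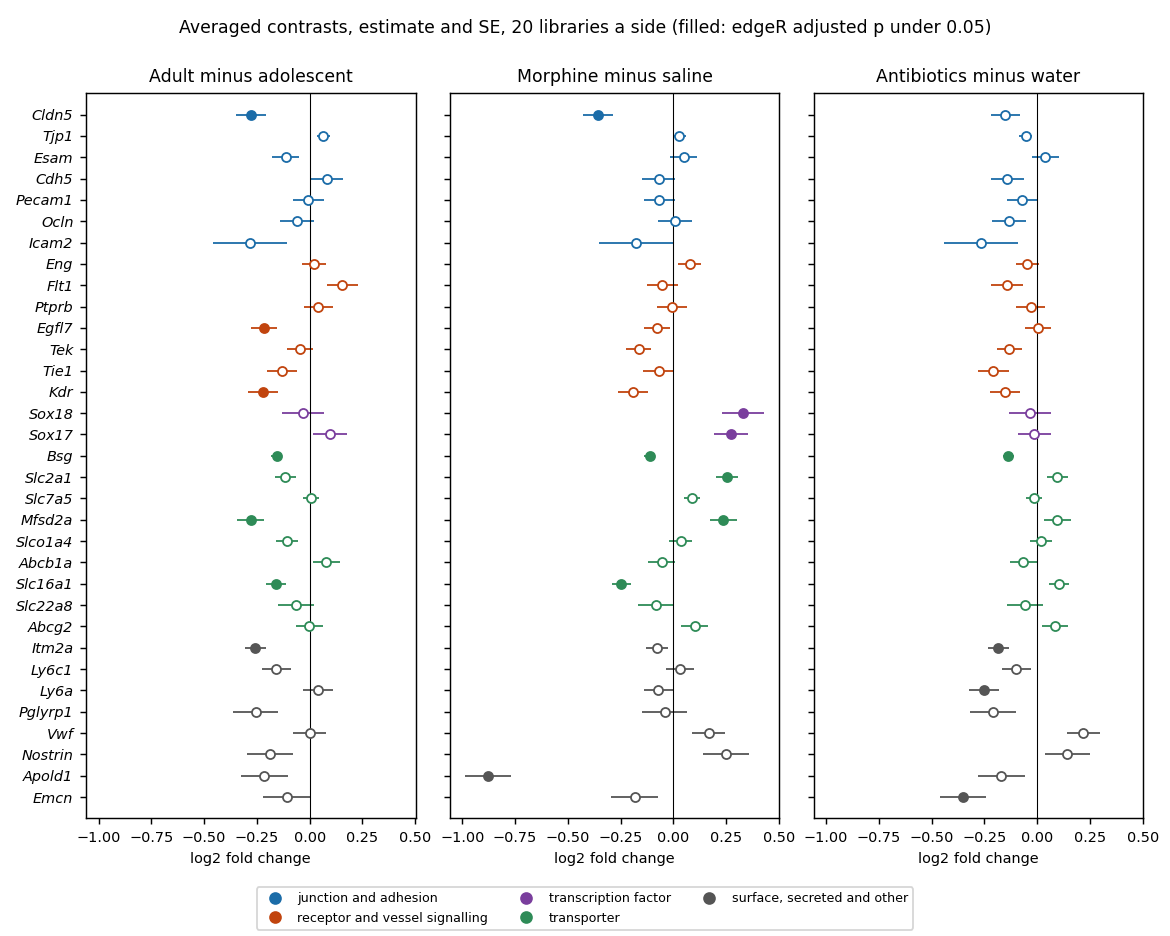
Log2 fold change and SE of the 33 members for age, morphine and antibiotics, each averaged over the other factors with 20 libraries a side; filled points passed an adjusted p of 0.05. Called members lie on both sides of 0 for morphine and only below 0 for age and antibiotics.

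The promoters of the called members are shown because these genes, all listed as endothelial or barrier markers, moved in opposite directions. Not all are exclusive to endothelial cells, as given above for Bsg, and the cells behind each change were not resolved. RefSeq promoters (GRCm38.p6, 250 bases before to 50 bases after the start) were listed for 22 of the 33 members and for 5 of the 8 called. They are Apold1 (ENSMUSG00000090698.3, chr6:134981751-134982050, plus strand), Cldn5 (ENSMUSG00000041378.3, chr16:18776597-18776896, plus strand), Slc16a1 (ENSMUSG00000032902.2, chr3:104638414-104638713, plus strand), Slc2a1 (ENSMUSG00000028645.12, chr4:119108495-119108794, plus strand) and Mfsd2a (ENSMUSG00000028655.12, chr4:122961139-122961438, minus strand). The other called members are Bsg (ENSMUSG00000023175.16, chromosome 10), Sox17 (ENSMUSG00000025902.14, chromosome 1) and Sox18 (ENSMUSG00000046470.6, chromosome 2). Capitals mark ACGTG, a form of the core of the hypoxia response element, searched on both strands, so that the palindrome CACGTG counts on each. Other forms of that core were not searched or marked.
Apold1: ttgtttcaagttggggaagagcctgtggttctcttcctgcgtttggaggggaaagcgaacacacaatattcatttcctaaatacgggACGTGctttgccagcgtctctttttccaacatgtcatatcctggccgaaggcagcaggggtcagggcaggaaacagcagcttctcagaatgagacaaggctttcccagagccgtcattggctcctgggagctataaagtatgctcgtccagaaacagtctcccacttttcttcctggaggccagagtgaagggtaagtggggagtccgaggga
Cldn5: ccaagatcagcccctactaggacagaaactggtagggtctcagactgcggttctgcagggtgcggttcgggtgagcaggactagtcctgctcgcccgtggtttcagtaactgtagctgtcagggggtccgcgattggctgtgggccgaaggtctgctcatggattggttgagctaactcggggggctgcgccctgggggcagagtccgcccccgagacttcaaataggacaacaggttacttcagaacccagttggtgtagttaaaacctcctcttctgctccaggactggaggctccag
Slc16a1: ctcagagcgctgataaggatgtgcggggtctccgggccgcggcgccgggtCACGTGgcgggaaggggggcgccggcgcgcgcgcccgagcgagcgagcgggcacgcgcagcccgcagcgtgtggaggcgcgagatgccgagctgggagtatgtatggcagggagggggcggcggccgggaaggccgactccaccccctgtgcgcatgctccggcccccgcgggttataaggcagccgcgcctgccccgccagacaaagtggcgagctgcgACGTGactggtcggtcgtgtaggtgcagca
Slc2a1: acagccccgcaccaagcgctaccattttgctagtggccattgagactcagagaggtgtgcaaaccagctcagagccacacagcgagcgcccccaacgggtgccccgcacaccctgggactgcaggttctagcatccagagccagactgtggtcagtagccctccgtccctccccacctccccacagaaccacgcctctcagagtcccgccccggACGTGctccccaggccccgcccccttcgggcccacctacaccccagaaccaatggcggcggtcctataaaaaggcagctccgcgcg
Mfsd2a: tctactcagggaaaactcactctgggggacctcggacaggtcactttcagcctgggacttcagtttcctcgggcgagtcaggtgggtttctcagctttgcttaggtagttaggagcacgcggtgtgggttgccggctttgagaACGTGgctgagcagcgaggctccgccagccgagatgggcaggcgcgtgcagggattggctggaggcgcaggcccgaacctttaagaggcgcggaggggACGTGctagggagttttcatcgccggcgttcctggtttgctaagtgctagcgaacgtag
ACGTG was present in 19.6% of all 32851 promoters of this length and in 6 of the 28 listed for members. It lay in Slc2a1, Mfsd2a, Apold1 and Slc16a1, so in genes that rose and in genes that fell, and no match was found in Cldn5. The letters TATAAA stood at -32 to -27 from the start in Apold1 and at 28 to 33 in Slc2a1. At any position and on either strand they were in 6 of the 28 member promoters and in 13.6% of all promoters. The CArG box, the site of serum response factor, was found in 0 of the 28 member promoters and in 1.63% of all promoters.

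Apold1, an early response gene of endothelial cells, changed most. In adolescents on water its level was 7.0, 4.55, 7.46, 11.7 and 13.4 CPM after saline and 3.67, 3.53, 4.73, 4.68 and 3.55 CPM after morphine. All morphine libraries except replicates 3 and 4 lay below every saline library. The log2 fold change was -1.14 ± 0.21 (adjusted p = 0.00187), a 2.20-fold lower level. In that comparison 1 of the 33 members was called, against 0.319% of all genes tested and 0.134% called lower. Adults on water read 7.97, 8.57, 7.92, 6.46 and 7.37 CPM after saline and 3.96, 2.62, 4.04, 4.85 and 3.39 CPM after morphine. Here the groups did not overlap. The estimate was a log2 fold change of -1.03 ± 0.22 (adjusted p = 0.0125), and Apold1 was again the 1 called member, against 0.475% of all genes tested and 0.213% called lower.

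On antibiotics, adolescent Apold1 was 5.24, 6.94, 8.81, 7.94 and 7.19 CPM after saline and 5.14, 2.95, 6.75, 3.82 and 2.56 CPM after morphine. Only morphine replicate 3 lay inside the saline range, and the log2 fold change was -0.76 ± 0.22 (adjusted p = 0.0389). In adults on antibiotics the saline libraries had 6.27, 5.02, 7.56, 4.06 and 5.19 CPM and the morphine libraries 3.22, 3.52, 3.68, 4.30 and 3.85 CPM. Those groups overlapped by morphine replicate 4 alone, and the log2 fold change of -0.59 ± 0.23 was not called (adjusted p = 0.535). Over all groups Apold1 was 7.33 ± 2.25 CPM after saline (SD, n = 20) and 3.94 ± 0.961 CPM after morphine (SD, n = 20). The log2 fold change was -0.88 ± 0.11 (adjusted p = 9.57e-08), lower in each of the 4 combinations of age and drink. Immediate early genes, which cells switch on within a short time of a stimulus, moved beside it. Of 14 tested 12 fell, with a median log2 fold change of -0.79, among them Csrnp1 (-0.75), Ccn1 (-1.51) and Dusp1 (-0.88). Over all genes tested, 1.81% were called lower and 48.7% had a negative log2 fold change. The part of the immediate early genes in the fall of Apold1 was not tested. Apold1 had a mean of 54.3 counts per library. Its adolescent call on water was lost when only those 2 groups were fitted (adjusted p = 0.0731), and its adult call on water without water-morphine replicate 2 (adjusted p = 0.0523).

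Among 7 junction and adhesion members, only Cldn5 was called, and the median of the 7 was -0.07. Cldn5 encodes claudin 5, the main claudin of the barrier. Over all groups it had 26.2, 36.7 and 53.2 CPM after saline and 17.2, 28.9 and 42.8 CPM after morphine, as the lowest, median and highest of 20 libraries. The ranges overlapped widely. The log2 fold change was -0.36 ± 0.07 (adjusted p = 0.00139), lower in each of the 4 combinations. In adolescents on antibiotics it was 38.7, 44.3, 38.0, 38.9 and 37.0 CPM after saline and 30.2, 34.7, 24.5, 29.7 and 29.6 CPM after morphine. These groups did not overlap, yet the log2 fold change of -0.41 ± 0.14 was not called (adjusted p = 0.111). The other 3 combinations had log2 fold changes of -0.44 in adolescents on water, -0.25 in adults on water and -0.33 in adults on antibiotics, none of them called.

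Transporters were called in both directions. Of 9 members, with the chaperone gene Bsg counted among them, 2 rose and 2 fell, and the median was 0.03. Slc2a1 encodes GLUT1, which carries glucose across the barrier. In adolescents on antibiotics it was 79.4, 87.6, 86.2, 90.8 and 97.0 CPM after saline and 112, 119, 111, 99.3 and 107 CPM after morphine. Every morphine library lay above every saline library there, but the log2 fold change of 0.31 ± 0.10 was not called on its own (adjusted p = 0.0793). In adolescents on water it was 69.1, 82.4, 59.6, 94.2 and 103 CPM after saline and 89.2, 97.9, 114, 137 and 93.9 CPM after morphine, with a log2 fold change of 0.38 ± 0.10 (adjusted p = 0.0947). Those groups overlapped, and without saline replicate 5, the library that stood apart, Slc2a1 and Mfsd2a were both called. In adults the log2 fold changes were 0.21 on water and 0.12 on antibiotics. Over all groups Slc2a1 rose from 84.3 ± 10.1 to 101 ± 13.3 CPM (SD, n = 20 each), a log2 fold change of 0.25 ± 0.05 (adjusted p = 0.00132). It was higher in each of the 4 combinations. An antisense gene, Gm12868, overlaps 105 bases of its exons, and without a stated strand setting their reads cannot be told apart.

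Mfsd2a encodes the carrier of lysophosphatidylcholine with docosahexaenoic acid, a protein that also limits transport by vesicles. It had 11.4, 17.8 and 26.4 CPM after saline and 15.6, 21.2 and 26.6 CPM after morphine, as the lowest, median and highest of 20 libraries. The ranges overlapped nearly fully. Its log2 fold change was 0.23 ± 0.06 (adjusted p = 0.0224), higher in each of the 4 combinations.

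Slc16a1 encodes MCT1, the carrier of lactate and ketone bodies, and the Bsg product brings it to the cell surface. Both fell over all groups. Bsg had a log2 fold change of -0.11 (adjusted p = 0.00632), with little change on water. Its means on water were 378 CPM after saline and 372 CPM after morphine in adolescents, and 345 and 342 CPM in adults. Slc16a1 was 33.3 ± 5.22 CPM after saline and 28.0 ± 3.07 CPM after morphine (SD, n = 20 each), with a log2 fold change of -0.25 ± 0.05 (adjusted p = 0.000576). In adolescents on antibiotics it was 44.6, 37.9, 34.7, 42.3 and 33.6 CPM after saline and 35.4, 30.8, 29.9, 26.2 and 28.9 CPM after morphine. Only morphine replicate 1 lay within the saline range, and the log2 fold change was -0.35 ± 0.09 (adjusted p = 0.0221). Adults on antibiotics had 27.7, 35.6, 35.0, 35.5 and 32.0 CPM after saline and 26.8, 25.0, 25.2, 25.5 and 24.8 CPM after morphine. Those groups did not overlap, and the log2 fold change of -0.38 ± 0.10 missed the threshold (adjusted p = 0.0845). On water the log2 fold changes were -0.22 in adolescents and -0.03 in adults, and neither was called. The difference between drinks was not called at either age, at -0.13 ± 0.13 in adolescents and -0.35 ± 0.14 in adults (adjusted p = 0.653 and 0.591).

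Both transcription factor members rose over all groups. SOX17 and SOX18 direct endothelial and arterial programmes. Sox17 had 4.83, 7.62 and 11.6 CPM after saline and 6.00, 8.87 and 12.6 CPM after morphine, as the lowest, median and highest of 20 libraries. Its log2 fold change was 0.27 ± 0.08 (adjusted p = 0.0359), higher in each of the 4 combinations. Sox18 had 5.15, 6.6 and 10.3 CPM after saline and 5.50, 8.38 and 14.7 CPM after morphine. Its log2 fold change was 0.33 ± 0.10 (adjusted p = 0.0429), higher in 3 of 4 combinations. The ranges of each gene overlapped widely. These calls were the least firm of the 8: leaving out 1 library lost the Sox17 call in 21 of 40 cases (adjusted p up to 0.0858) and the Sox18 call in 28 of 40 (up to 0.0871). None of the 7 receptor and vessel signalling members was called over all groups, and 6 of the 7 were negative, with a median of -0.07.

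**Figure D4:**
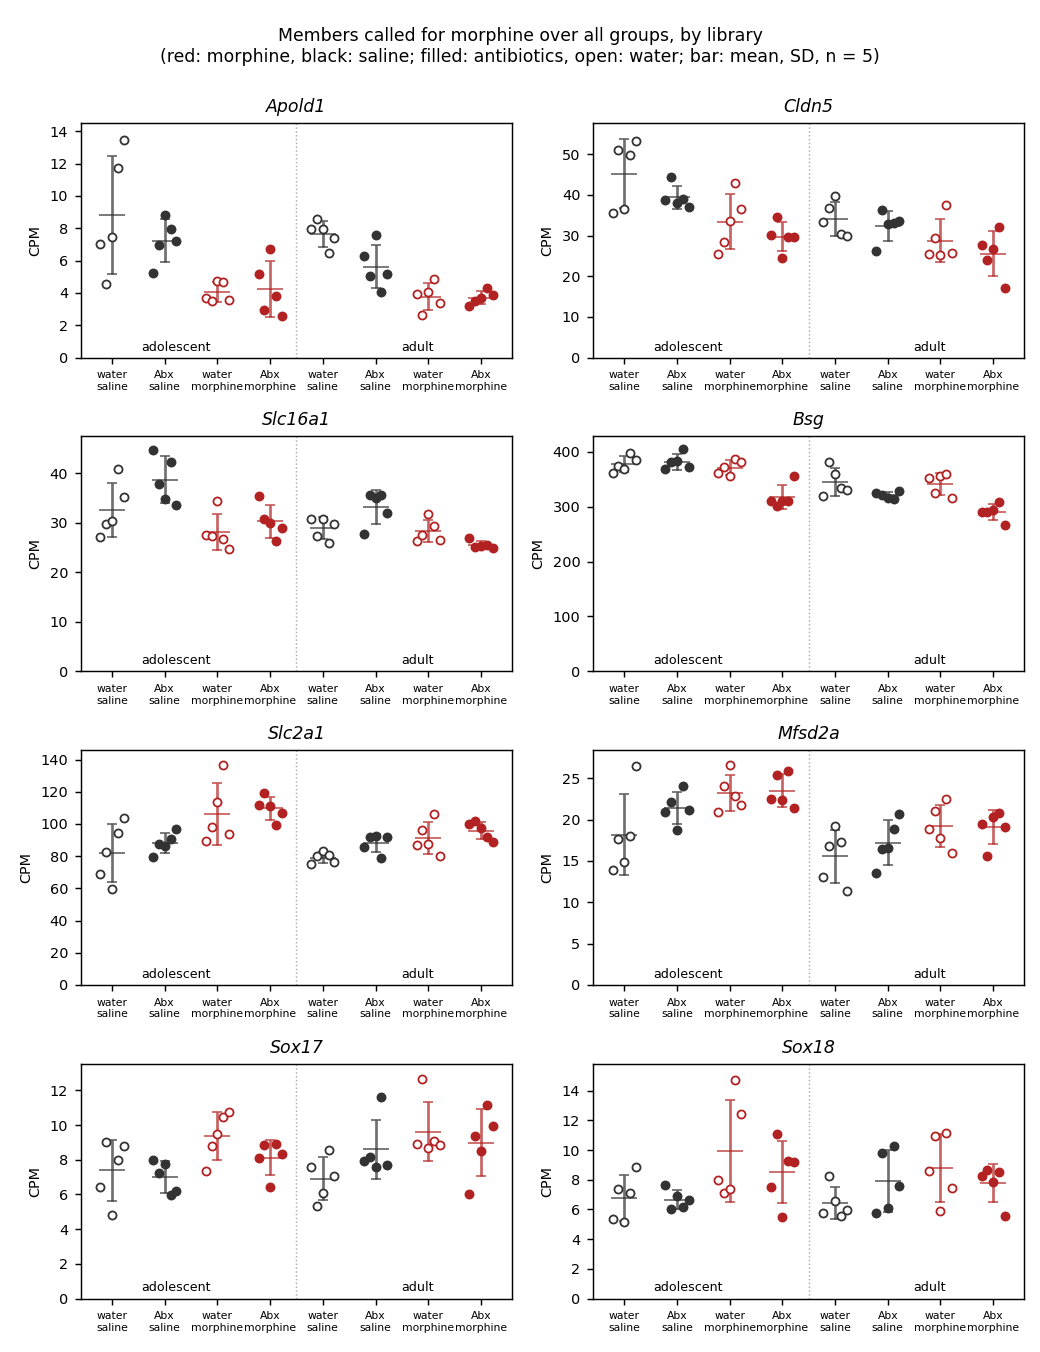
CPM in each library of the 8 members called for morphine over all groups, with the mean and SD of each group (n = 5). Apold1 is lower after morphine in every combination of age and drink, and Bsg is lowest where antibiotics and morphine were combined.

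In adolescents the mean of Bsg was lowest in Abx-morphine mice. The level was 361, 374, 369, 398 and 386 CPM in water-saline mice and 368, 381, 383, 405 and 373 CPM in Abx-saline mice. Water-morphine mice had 362, 373, 355, 387 and 381 CPM, and Abx-morphine mice 309.8, 301, 311, 311 and 355 CPM. Only replicate 5 of the last group reached the level of another group. Morphine on antibiotics gave a log2 fold change of -0.27 ± 0.05 (adjusted p = 0.00199), and antibiotics under morphine -0.23 ± 0.05 (adjusted p = 0.00484). Morphine on water gave -0.02 and antibiotics in saline 0.02, neither called. The interaction, the effect of morphine on antibiotics minus that on water, was -0.24 ± 0.07 and missed the threshold (adjusted p = 0.0780), so the effects are not shown to differ. DESeq2 and limma-voom called it, and so did edgeR without Abx-morphine replicate 5. Other cell types moved in the same groups. Summed striatal neuron markers were 149.8 to 158 CPM in Abx-morphine adolescents, 126 to 147 CPM in Abx-saline, 126 to 150.5 CPM in water-morphine and 115 to 137 CPM in water-saline adolescents. Pde10a, among those 6 markers, rose in both comparisons in which Bsg fell, by 0.26 and 0.30 on the log2 scale (adjusted p = 0.0268 and 0.00554). Their part in the result on Bsg was not tested.

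In adults, Bsg was 319, 382, 361, 334 and 329.9 CPM in water-saline mice and 325, 321, 317, 315 and 328 CPM in Abx-saline mice. Water-morphine mice had 352, 326, 356, 359.9 and 316 CPM, and Abx-morphine mice 291, 291, 295, 309 and 267 CPM. Every Abx-morphine library lay below those of the other adult groups, which did not hold for replicate 5 in adolescents. Antibiotics under morphine gave -0.23 ± 0.05 and morphine on antibiotics -0.14 ± 0.05, and neither was called (adjusted p = 0.0932 and 0.487). The age difference of the effect of morphine on antibiotics was 0.12 ± 0.07 and was not called (adjusted p = 0.823).

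In adolescents on antibiotics, 4 of the 33 members fell with morphine, against 2.92% of all genes tested called and 1.34% called lower, and the median of the 33 was -0.11. They were Bsg, Slc16a1 and Apold1, given above, and Tek, the receptor of angiopoietins. Tek was 17.5, 18.3, 18.3, 18.8 and 21.4 CPM after saline and 12.4, 17.6, 14.3, 10.96 and 15.2 CPM after morphine. Only morphine replicate 2 reached the saline range. Its log2 fold change was -0.42 ± 0.12 (adjusted p = 0.0389). Leaving out 1 of the 10 libraries ended the call of Tek in 8 cases, of Apold1 in 7, of Slc16a1 in 5 and of Bsg in 0, so Bsg is the call here that did not depend on a single library. Tek was kept without Abx-morphine replicates 2 and 5, and Apold1 without Abx-saline replicate 1 and Abx-morphine replicates 1 and 3. The Slc16a1 call was lost without Abx-saline replicates 1 and 4 or Abx-morphine replicates 2, 3 and 4. The highest adjusted p was 0.153 for Tek, 0.152 for Apold1 and 0.104 for Slc16a1. Angpt1, a ligand of the Tek receptor, is named from a longer list of vessel signalling partners. It fell in the same comparison by 0.90 on the log2 scale, and its part in the Tek result was not tested. Among markers of other cell types, the striatal gene Pde10a rose as given above, the oligodendrocyte gene Mal rose with a log2 fold change of 0.46 (adjusted p = 0.0433) and all 8 oligodendrocyte markers were positive with a median of 0.30. The mural gene Anpep had -0.72 (adjusted p = 0.0286), the 1 of 12 mural markers called, and all 11 fibroblast markers were negative with a median of -0.43 and none called. The part of these cells in the 4 calls was not tested.

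In adults on antibiotics, morphine gave no call among the 33 in edgeR, with 0.213% of all genes called. At an unadjusted p under 0.05 there were 5 of the 33, beside 7.04% of all genes. The smallest p-values were those of Slc16a1 and Bsg. Without the filter on low counts, in DESeq2, and without Abx-saline replicate 1, Slc16a1 was called.

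**Figure D5:**
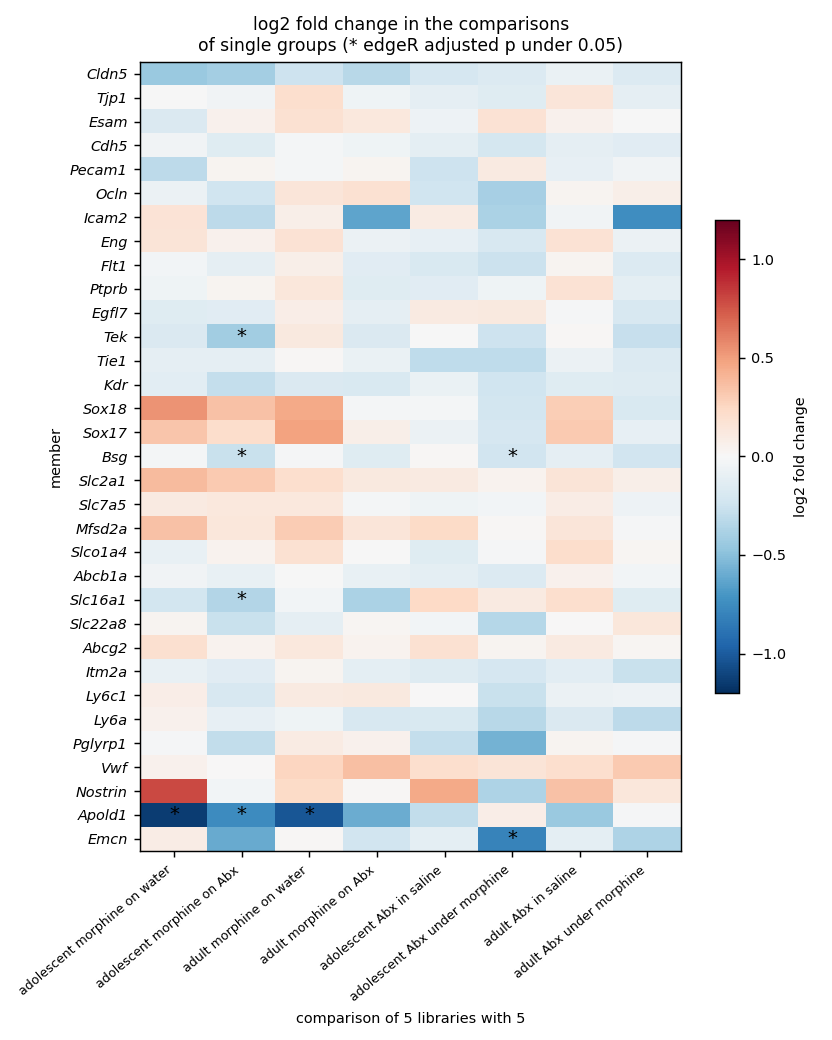
Log2 fold change of the 33 members in 8 comparisons of single groups, from blue (lower) to red (higher), with a star at an adjusted p under 0.05. Apold1 carries 3 stars and Bsg 2, and no member that rose is starred.

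With antibiotics over all groups 4 of the 33 members fell and 0 rose, against 7.50% of all genes tested called in either direction and 4.23% called lower. The median log2 fold change was -0.07, and 24 of the 33 were negative. Bsg fell by 0.14 ± 0.03 on the log2 scale (adjusted p = 0.000598), though it was lower in 3 of 4 combinations of age and injection and at 0.02 in saline adolescents. The other 3 are surface proteins. Itm2a, an integral membrane protein, was 45.7 ± 6.92 CPM on water and 40.3 ± 5.89 CPM on antibiotics (SD, n = 20 each), a log2 fold change of -0.18 ± 0.05 (adjusted p = 0.0178). Ly6a, which encodes the antigen Sca-1, was 13.6 ± 2.23 and 11.5 ± 1.72 CPM, a log2 fold change of -0.25 ± 0.07 (adjusted p = 0.0196). Emcn, which encodes endomucin of capillaries and veins, was 4.30 ± 0.716 and 3.40 ± 1.07 CPM, a log2 fold change of -0.35 ± 0.11 (adjusted p = 0.0392). All of these ranges overlapped between drinks. The Emcn call was lost in 19 of 40 cases when 1 library was left out (adjusted p up to 0.0753). Ly6a belongs to a family of near copies, and reads shared with them may be split or lost in counting.

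In saline mice, antibiotics gave no call among the 33 at either age in edgeR, and 0 in DESeq2 and limma-voom. In adolescents 0.0391% of all genes were called, and 3 of the 33 members had an unadjusted p under 0.05, a share near the 9.75% of all genes. Slc16a1 was 0.24 ± 0.09 (adjusted p = 0.363) and the receptor gene Tie1 -0.30 (adjusted p = 0.475). In adults 0.0503% of all genes were called, and 3 of the 33 members had an unadjusted p under 0.05, again near the 10.1% of all genes. The scaffold gene Tjp1 was 0.14 (adjusted p = 0.436) and Apold1 -0.45 ± 0.21 (adjusted p = 0.453). Under morphine, 2 of the 33 members, or 6.06%, fell in adolescents. That is near the shares of all genes, 7.56% called and 4.02% called lower. The median of the 33 was -0.20, beside -0.01 over all genes, and 24 were negative. Emcn was 4.67, 4.25, 4.31, 5.68 and 4.94 CPM in water-morphine mice and 1.71, 3.27, 2.7, 1.27 and 4.81 CPM in Abx-morphine mice. Replicate 5 alone of the Abx-morphine libraries reached the other group. The log2 fold change was -0.80 ± 0.22 (adjusted p = 0.0180), and the call was lost without water-morphine replicate 4 or Abx-morphine replicates 1 and 4 (adjusted p up to 0.0958). Without Abx-morphine replicate 5, 5 members were called, with Ly6a, Tie1 and Tjp1 added. In the same comparison Anpep (-0.66), the microglial gene C1qa (-0.41), the astrocyte gene Aqp4 (-0.42) and the neuronal gene Stmn2 (-0.22) fell. These are single genes of their lists, and the summed markers of each list overlapped between the groups. Group medians in water-morphine and Abx-morphine mice were 299 and 286 CPM for mural and 420 and 370 CPM for microglia markers. They were 4771 and 4337 CPM for astrocyte and 7044 and 6916 CPM for neuron markers. All 8 oligodendrocyte markers were positive with a median of 0.31, and the part of these cells was not tested. In morphine-treated adults antibiotics gave no call in edgeR, with 0.0280% of all genes called, and 5 of the 33 members had an unadjusted p under 0.05, beside 8.02% of all genes. The smallest p-values there were those of Bsg and Itm2a, the latter at -0.27 (adjusted p = 0.466).

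The interaction gave no member call in edgeR at either age. In adolescents 1.24% of all genes were called, and 3 of the 33 had an unadjusted p under 0.05, a share below the 16.9% of all genes. The smallest p after Bsg was that of Nostrin, which encodes a trafficking inducer of endothelial nitric oxide synthase, at -0.82 ± 0.30 (adjusted p = 0.140). Nostrin was 2.52, 2.60, 1.89, 3.21 and 2.79 CPM in water-saline adolescents and 4.51, 4.25, 4.52, 4.88 and 4.41 CPM in water-morphine adolescents, groups that did not overlap (log2 fold change 0.79 ± 0.21, adjusted p = 0.0850). With a mean of 32.1 counts per library its precision was limited. In adults 2 members had an unadjusted p under 0.05, Tjp1 at -0.25 (adjusted p = 0.564) and Slc16a1 at -0.35 (adjusted p = 0.591), and 0% of all genes were called, with 1214 genes, 6.79%, at an unadjusted p under 0.05. DESeq2 and limma-voom also called 0 members in the adult interaction and in both age differences. Between ages, the effect of morphine on antibiotics had 0 members and 1151 genes, 6.44%, at an unadjusted p under 0.05 and 0% of all genes called, with the tight junction gene Ocln first at 0.42 (adjusted p = 0.796) before Bsg. The effect of antibiotics under morphine had 0.00559% of all genes called, and 1 member and 5.65% of all genes at an unadjusted p under 0.05. Ocln led at 0.47 and the organic anion transporter gene Slc22a8 followed at 0.48 (adjusted p = 0.874 each). The age difference of the effect of morphine on water was not tested.

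Adults had lower levels than adolescents for 7 of the 33 members and higher levels for 0, against 17.9% of all genes called in either direction and 8.57% called lower in adults. The 7 were the transporter genes Mfsd2a and Slc16a1, the transporter chaperone gene Bsg, the junction gene Cldn5, Kdr, Egfl7 and Itm2a. Neither transcription factor member was among them. The median of the 33 was -0.11, beside 0.01 over all genes, and 24 of the 33 were negative. Bsg was 362 ± 30.6 CPM in adolescents and 325 ± 27.7 CPM in adults (SD, n = 20 each), a log2 fold change of -0.16 ± 0.03 (adjusted p = 2.13e-05). Itm2a was 46.8 ± 6.46 and 39.2 ± 5.05 CPM, a log2 fold change of -0.26 ± 0.05 (adjusted p = 0.000267). Mfsd2a was 21.6 ± 3.54 and 17.8 ± 2.91 CPM, a log2 fold change of -0.28 ± 0.06 (adjusted p = 0.00147). These 3 were lower in adults in each of the 4 treatments, with overlapping ranges. Cldn5 was 36.9 ± 8.12 and 30.2 ± 5.50 CPM, a log2 fold change of -0.28 ± 0.07 (adjusted p = 0.00484). Egfl7, which encodes a secreted factor of growing vessels, had a log2 fold change of -0.22 ± 0.06 (adjusted p = 0.0111). Kdr, the main receptor of vascular endothelial growth factor, was 19.0 ± 3.35 and 16.3 ± 2.82 CPM, a log2 fold change of -0.22 ± 0.07 (adjusted p = 0.0203). Cldn5 and Kdr were also lower in each of the 4 treatments. Egfl7 was lower in 3 and level in water-morphine mice, with means of 13.6 CPM in adolescents and 13.5 CPM in adults. Slc16a1 had a log2 fold change of -0.16 ± 0.05 (adjusted p = 0.0133) and was lower in 3 of the 4. All 7 calls held when any 1 of the 40 libraries was left out.

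Oligodendrocyte markers moved with age too: 8 of 8 fell in adults with a median of -0.39. Their summed level was 1192 to 2225 CPM in water-saline adolescents and 986 to 1105 CPM in water-saline adults. In water-morphine mice the ages were level, with medians of 1443 CPM in adolescents and 1458 CPM in adults. The ranges of the ages overlapped there and also in Abx-saline and Abx-morphine mice. Oligodendrocyte precursor markers had 3 of 6 lower with a median of -0.18, led by Gpr17 (-0.58). Red blood cell markers went the other way, with 3 of 5 higher and a median of 0.27: Hba-a1 (0.27), Hbb-bs (0.28) and Alas2 (0.51). Fibroblast markers had 1 of 11 lower, Col3a1 (-0.75), and microglia markers 1 of 10 lower, C1qc (-0.17), with all 10 negative. Neuron markers had 2 higher and 2 lower of 8. The part of these cells in the results on the members was not tested. Mural markers, of the cells that wrap vessels, had 1 of 12 lower with a median of -0.04. Counts of 1 in 10 to 12 markers are near the 8.57% of all genes called lower in adults. In water and saline alone, adults differed in no member by edgeR, with 0.257% of all genes called. At an unadjusted p under 0.05 there were 8 members and 1788 of the 17880 genes, and 29 of the 33 were negative with a median of -0.14. Slco1a4, an organic anion carrier gene, was -0.34 (adjusted p = 0.214) and Itm2a -0.31 (adjusted p = 0.227), and both were called without the filter on low counts.

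Other genes of the vessel wall were read from lists of related pathways. A count of 1 in 20 or 21 genes is near the shares of all genes called. After morphine over all groups, where 2.54% of all genes were called higher and 1.81% lower, 0 of 20 barrier Wnt genes rose and 1 fell, Nkd1, a feedback inhibitor of the pathway (-0.23). Of 19 partners in growth factor and Notch signalling, 0 rose and 3 fell: Dll4, a Notch ligand of endothelial tip cells (-0.46 ± 0.10), the co-receptor gene Nrp2 (-0.17) and the sphingosine phosphate receptor gene S1pr1 (-0.21), which astrocytes also express. Klf2, a flow-responsive factor, was the 1 called of 21 other endothelial markers (-0.41 ± 0.09), and Ptgs2, a prostaglandin synthase gene that neurons also express, the 1 of 6 activation genes tested (-0.29). Of 22 other barrier transporters and junction genes, 2 rose and 2 fell, among them the taurine carrier gene Slc6a6 (0.12), the glutamine carrier gene Slc38a3 (-0.14) and the iron exporter gene Slc40a1 (-0.21). No gene of 10 arterial and venous markers was called. Of 9 hypoxia targets tested, 2 rose and 1 fell, Pfkfb3 (0.19), Bnip3 (0.11) and Ldha (-0.13). Of 13 glucocorticoid targets, 4 rose and 2 fell, led by Cdkn1a (-0.59), Fkbp5 (0.41) and Zbtb16 (0.25).

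After antibiotics over all groups, where 7.50% of all genes were called and 4.23% called lower, the Wnt list had 0 higher and 2 lower, Wnt7b (-0.26), a ligand that neural cells send to the endothelium, and Tnfrsf19 (-0.13). The growth factor list had 0 higher and 2 lower, Nrp1 (-0.26), the co-receptor that works with the Kdr product, and S1pr1 (-0.18). Of the other endothelial markers 2 fell, Mmrn2 and Cd93 (-0.33 each), and of the other transporters 1 rose and 4 fell, among them Slc6a6 (0.20), Slc38a3 (-0.23) and Slc38a5 (-0.54). Vcam1, a leukocyte adhesion gene, was the 1 of 6 activation genes called, at -0.24. Glucocorticoid targets had 5 higher and 0 lower of 13, with Fkbp5 (0.40), Plin4 (0.85) and Zbtb16 (0.18). With age, where 8.57% of all genes were called lower, 4 of 20 Wnt genes fell, among them Ctnnb1 (-0.15), Nkd1 (-0.30) and Apcdd1 (-0.27). Of 21 other endothelial markers 2 fell, Cd93 (-0.42) and Ctla2a (-0.65), a count near that share. The counts of these lists called higher with age are not given here.

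Markers of other cell types are given beside the members as follows, and their part was not tested. With morphine 4.35% of all genes were called, 2.54% higher and 1.81% lower. With antibiotics 7.50% were called, 4.23% lower. Counts of 0 or 1 in lists this short cannot be told from those shares. With morphine, mural markers had 0 of 12 called, 10 negative and a median of -0.11, fibroblast markers had 1 of 11 lower with a median of -0.18, and red blood cell markers had 2 of 5 higher with a median of 0.30. Oligodendrocyte markers had 2 of 8 higher with a median of 0.20, neuron markers 1 of 8 higher, striatal neuron markers 1 higher and 1 lower of 6, and astrocyte markers 1 of 10 lower. With antibiotics, mural markers had 0 of 12 called and 10 negative, microglia markers 1 of 10 lower with all 10 negative, astrocyte markers 3 of 10 lower with a median of -0.11, oligodendrocyte precursor markers 1 of 6 lower, and striatal neuron markers 1 of 6 higher. The summed mural level was 240.4 to 486 CPM over the 40 libraries.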

How the data were processed

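Raw read counts of 56980 genes in 40 libraries were deposited by the authors as 1 table. The build mm10, STAR 2.7.10a and DESeq2 are named per the submitters' processing notes, with no role given for DESeq2. The annotation for counting was not given in the sources used here, nor was its strand. Identifiers were matched without version to GENCODE M21 symbols (52073, or 91.4%), and only 35 matched with it. The members, gene lists, comparisons and the rule for named genes were chosen with earlier results of these data known.

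In edgeR 4.0.16 (R 4.3.3), filterByExpr over the groups kept genes with a minimum count of 10 and total of 15. Counts were scaled by TMM and fitted by robust quasi-likelihood with 1 coefficient per group (biological coefficient of variation 9.14%). In all, 16 two-sided contrasts were tested and adjusted by Benjamini-Hochberg over 17880 genes. SE is the log2 fold change over the square root of F. The fit was also run on counts simulated with the dispersions estimated from these data. Such counts hold no outlying library, so that run cannot show how the fit handles one. Levels per kilobase use merged GENCODE exons. By the rule, members called in any comparison are named with values, and where none was called the 2 with the smallest p; of other lists up to 3 called genes a comparison. Within a group, pairs of libraries differed by a chi-square per gene of 2.16 to 15.3, so none was treated as a duplicate. Alternatives were RLE size factors, no filter, a replicate block, DESeq2 1.42.0, limma-voom (limma 3.58.1) with quality weights, the compared groups alone, and leaving out each library.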

Additional observations from a re-analysis of the deposited data

Results flagged for a closer look

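For the 14 members called in any comparison, 112 groups of 5 libraries were examined for a highest or lowest library whose gap to the nearest other exceeded 0.71 of the range of the group. This found 9 cases, and chance gives about 1 in 20 groups. In adolescents, Cldn5 in Abx-saline replicate 2 was 44.3 CPM against 37.0 to 38.9 in the others, and Ly6a in Abx-saline replicate 5 was 14.2 CPM against 10.6 to 11.4. Tek in adolescent water-morphine replicate 4 was 18.8 CPM against 15.8 to 16.4. Bsg in adolescent Abx-morphine replicate 5 was 355 CPM against 301 to 311, and without that library the adolescent interaction of Bsg was called. In adult Abx-saline mice, Ly6a in replicate 2 was 9.10 CPM against 12.7 to 13.8, Egfl7 in replicate 3 was 8.58 CPM against 12.8 to 14.5, and Sox17 in replicate 4 was 11.6 CPM against 7.56 to 8.16. Sox17 in adult water-morphine replicate 2 was 12.6 CPM against 8.65 to 9.06. Sox18 in adult Abx-morphine replicate 5 was 5.55 CPM against 7.86 to 8.63.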

How the results depend on the processing

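Over 1349 recomputed values of the named members, 0 changed sign, 1247 kept their side of the threshold, 93 lost it and 9 gained it. DESeq2 gave no adjusted p for Apold1 in 2 comparisons. The number of called members moved by over 1.5 times as follows. Age in water-saline went from 0 to 2 without the filter. Morphine in adolescents on water went from 1 to 2 without the filter, in DESeq2 and in limma-voom (with Slc2a1), to 0 with only the compared groups, and between 1 and 3 when 1 library was left out. Morphine in adolescents on antibiotics went from 4 to 7 in limma-voom and between 1 and 4 with 1 library left out, and antibiotics in morphine-treated adolescents from 2 to 7 in limma-voom and between 1 and 5. Morphine in adults on water went from 1 to 0 in DESeq2, where Apold1 has no adjusted p, and between 0 and 1 with 1 library left out. Morphine in adults on antibiotics went from 0 to 1 without the filter and in DESeq2 (Slc16a1), and between 0 and 1. Antibiotics in morphine-treated adults went from 0 to 1 in DESeq2 (Bsg). The adolescent interaction went from 0 to 1 in DESeq2 and limma-voom (Bsg), and between 0 and 1. The cause was not tested. Over all groups the members called were 7 to 8 for age, 6 to 8 for morphine and 3 to 5 for antibiotics with 1 library left out.

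Among all genes, limma-voom called 1204 for morphine in adolescents on antibiotics, against 522, and 2595 for antibiotics in morphine-treated adolescents, against 1351; leaving out 1 library gave 214 to 949 and 641 to 2260. In the other comparisons of single groups, among those with 1 or more calls, counts over all genes also moved by over 1.5 times in at least 1 alternative, from 57 to 137 without the filter for morphine in adolescents on water and from 85 to 219 in limma-voom for adults on water.

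Replicate numbers were not clearly seen to pair the libraries. Over 60 same-numbered pairs the mean correlation of deviations was 0.00985, with 6 pairs over 0.1. Over 240 different-numbered pairs the mean was -0.00243, with 12 pairs over 0.1. With a replicate block the members called were 8 for morphine, 7 for age and 4 for antibiotics over all groups, as without it, and no count of called members changed. Depth limits Icam2, Nostrin, Emcn and Pglyrp1, with means of 18.95 to 37.25 counts per library.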
